A study of Mus musculus with 6 samples.

Results

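The insulin-like growth factor (IGF) family was examined here as 10 genes chosen by their function: the ligands Igf1 and Igf2, the receptors Igf1r and Igf2r, and the binding proteins Igfbp2 to Igfbp7. All 10 of these genes had a row among the 17204 Ensembl genes of the deposited table. Expression was compared between SCC FAK-/- and SCC FAK-wt cells, with 3 arrays of each line. Both lines descend from skin squamous cell carcinomas that were chemically induced in FVB mice of the genotype K14CreER FAKflox/flox, in which the keratin 14 promoter drives a tamoxifen-inducible Cre recombinase. SCC FAK-/- is 1 clone, isolated after 4-hydroxytamoxifen treatment, that lacks focal adhesion kinase (FAK), a non-receptor tyrosine kinase that signals from integrins. In FAK-expressing SCC cells the authors also found FAK in the nucleus. SCC FAK-wt is the same clone after retroviral transduction with wild-type FAK, and it was kept in hygromycin. FAK re-expression, the vector, the drug selection and any drift of the clone therefore cannot be told apart. Neither the gene for FAK nor markers of squamous cells and of other cell types could be read here, because the identifiers of the table were not paired with symbols beyond the members.

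IGF signalling is set by 3 layers. The ligands IGF-I and IGF-II activate the tyrosine kinase receptor encoded by Igf1r, which feeds the PI3K-AKT and ERK pathways. The product of Igf2r, also known as the cation-independent mannose 6-phosphate receptor, has no kinase and carries IGF-II to lysosomes. The secreted binding proteins hold ligand outside the cell, where they can withhold it from the receptor or deliver it. In skin, keratinocytes carry the receptor, and much of the IGF-I comes from fibroblasts of the dermis.

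Igfbp3 was the member called different between the cell lines at an adjusted p under 0.05, with about 10.4% of the SCC FAK-/- level in SCC FAK-wt cells. The transcript of Igfbp3, whose product carries most circulating IGF and restrains growth in many epithelial cells, was high in every SCC FAK-/- sample and low in every SCC FAK-wt sample. The other 9 members did not pass an adjusted p under 0.05, and their estimated differences were all smaller than 2-fold. For the ligands, values were in the lower part of the table in both lines.

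The promoter of Igfbp3 is shown because this was the member that passed the test. The sequence is the 250 bases before the start site that RefSeq gives for Igfbp3, on the minus strand of GRCm38.p6 at chr11:7213924-7214173, written from the far end to the start site, with each CG dinucleotide in capitals.

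Igfbp3 promoter: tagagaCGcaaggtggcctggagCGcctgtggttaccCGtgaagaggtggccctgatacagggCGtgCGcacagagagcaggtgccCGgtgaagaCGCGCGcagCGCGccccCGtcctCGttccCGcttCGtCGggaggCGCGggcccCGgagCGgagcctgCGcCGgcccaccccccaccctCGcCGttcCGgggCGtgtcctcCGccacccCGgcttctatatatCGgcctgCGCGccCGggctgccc

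The window held 32 CG dinucleotides and 73.2% G and C, where the median of 32851 such windows over all genes was 6 and 52.4%. As many CG dinucleotides or more were found in 4.58% of windows. The annotated span of Igfbp3 reached 1575 bases further upstream than this start site, so it is not the outermost one. On either strand, the window held no match to the GC box (GGGCGG, in 32.7% of all windows), the TATA box (TATAAA, in 12.4%), the CCAAT box (CCAAT, in 33.8%), the AP-1 site (TGANTCA, in 6.75%) or the E-box (CACGTG, in 6.02%). Only these exact letters were searched for, so close variants were not counted. The sequence shown holds the TATA-like stretch tatatat near its end, so the search does not show that the promoter lacks a TATA box. The GC box and the E-box each hold a CG themselves. All 10 members had at least 1 window, 14 in all, and the window of Igf1r held the most CG dinucleotides, 42. Methylation was not measured in these samples, and the sequence is given as a description only.

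Values are log2 expression after Robust Multi-array Average (RMA), so 1 unit is a 2-fold difference. Different genes are read by different probes, so no member's level is set against another's, and the share of all genes with a lower mean is given only to mark values near the lower end of the table. A gene was called when its limma p, adjusted by Benjamini-Hochberg over all 17204 genes, was under 0.05, and the count at an unadjusted p under 0.01 is given beside it. Differences are SCC FAK-wt minus SCC FAK-/-. The medians of the 6 arrays lay between 5.90 and 5.97, and the median difference over all genes was 0.016. RNA of whole cultures cannot tell fewer expressing cells from less RNA per cell.

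The 3 SCC FAK-/- samples gave values of 8.16, 8.25 and 8.21 for Igfbp3 (ENSMUSG00000020427). The 3 SCC FAK-wt samples gave 5.06, 4.65 and 5.13. The highest SCC FAK-wt value lay 3.02 log2 units below the lowest SCC FAK-/- value, a gap far wider than the spread within either line. The mean fell from 8.21 ± 0.046 (SD, n = 3) to 4.95 ± 0.26 (SD, n = 3). This was a log2 fold change of -3.26 with a standard error of 0.14, or a level 9.57-fold higher in SCC FAK-/- cells (95% confidence interval 7.58 to 12.1; limma adjusted p = 0.000624). Relative to the SCC FAK-/- mean, the single SCC FAK-wt samples lay at 8.50% to 11.9%. These sizes are those of the array values. RMA values can compress a fold change near the background, and whether the SCC FAK-wt values were compressed was not tested. Of the 17204 genes, none had a smaller p than Igfbp3 in the limma fit (unadjusted p = 5.15e-08), and its decrease was the third largest. An exact permutation test of 3 against 3 samples gave p = 0.1, the smallest it allows. Igf2r, Igf1r, Igfbp4 and Igfbp6 gave the same p in this test, so it does not set Igfbp3 apart from them.

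**Figure D1:**
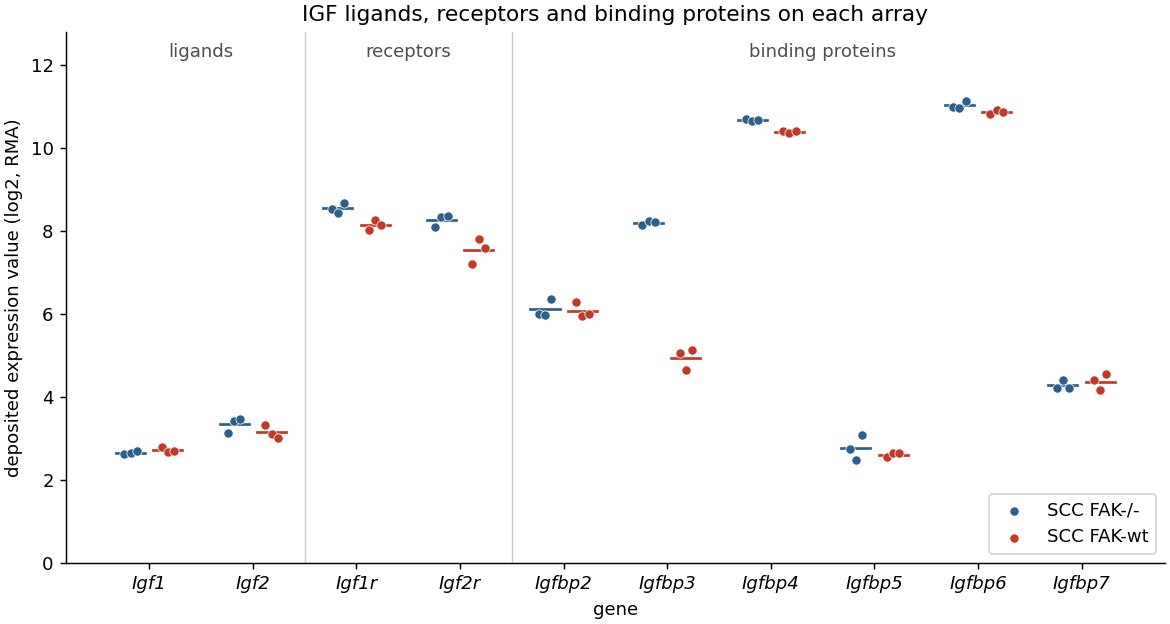
Deposited log2 expression of the 10 IGF family genes (x axis, ordered by role) on each array (y axis). Points are single samples and horizontal bars are the means of 3 samples, with SCC FAK-/- in blue and SCC FAK-wt in red. The Igfbp3 samples lie at 8.16 to 8.25 in SCC FAK-/- and at 4.65 to 5.13 in SCC FAK-wt, and heights are to be compared within a gene only.

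Among the 10 members, 1 was called lower in SCC FAK-wt cells at an adjusted p under 0.05, against 1.10% of all genes. None (0) was called higher in the limma fit, against 0.820% of all genes. At an unadjusted p under 0.01, 3 members were lower, Igfbp3, Igf2r and Igf1r, against 3.66% of all genes. At that level 0 members were higher, against 3.19% of all genes. The cell lines did not overlap in 5 members, all of them lower in SCC FAK-wt (Igfbp3, Igf2r, Igf1r, Igfbp4 and Igfbp6), where 10.0% of all genes were separated in this direction. No member (0) was separated in the other direction, against 11.5% of all genes. The estimate was below 0 in 8 members and in 46.7% of all genes. The median difference over the members was -0.18. With 10 genes, these shares describe the family and were not tested.

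**Figure D2:**
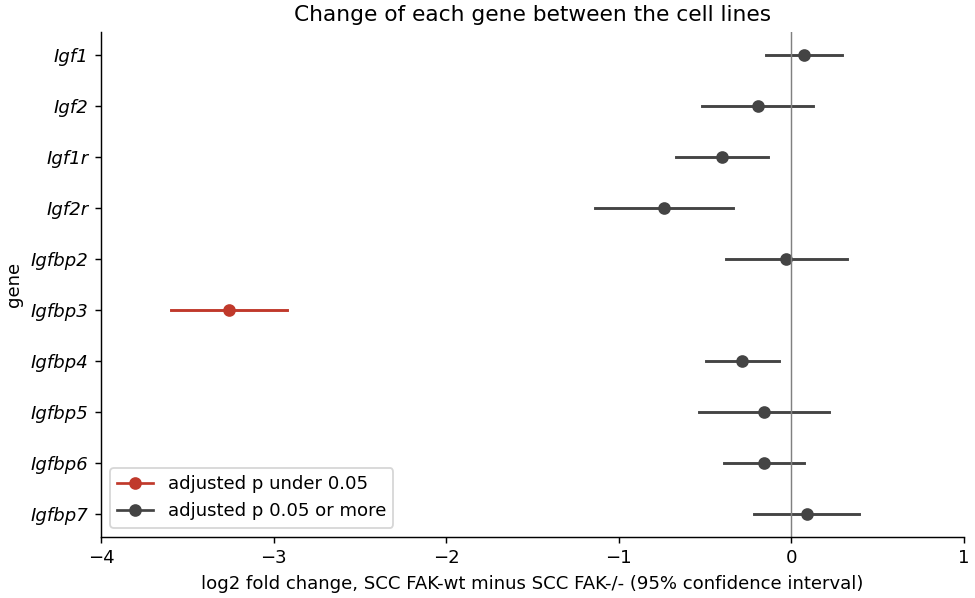
Log2 fold change of each gene, SCC FAK-wt minus SCC FAK-/- (x axis), with its 95% confidence interval from limma. Igfbp3, in red, had an adjusted p under 0.05, and the intervals of Igf2r, Igf1r and Igfbp4 also lie below 0 without adjustment for the number of genes.

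The receptors came next in size. Igf2r (ENSMUSG00000023830) had values of 8.09, 8.35 and 8.37 in SCC FAK-/- samples. In SCC FAK-wt samples it had 7.21, 7.81 and 7.58. The groups were separated by 0.28 log2 units, and the first SCC FAK-wt sample was the lowest. The difference was -0.74 with a standard error of 0.17, or 60.0% of the SCC FAK-/- level, with an unadjusted limma p of 0.00315 and an adjusted limma p of 0.0860. The unadjusted p rose to 0.0130 without SCC FAK-/- replicate 2, to 0.0131 without SCC FAK-/- replicate 3 and to 0.0198 in an ordinary linear model without moderated variances (adjusted p = 0.246). In 9 of the 12 alternatives tried, the unadjusted limma p of Igf2r stayed under 0.01. The difference was -0.57 without SCC FAK-wt replicate 1. Igf2r is an imprinted gene in the mouse, expressed from the maternal copy in most tissues.

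Igf1r (ENSMUSG00000005533), the signalling receptor, had values of 8.54, 8.45 and 8.68 in SCC FAK-/- samples. In SCC FAK-wt samples it had 8.04, 8.28 and 8.15. The groups were separated by 0.17 log2 units. The difference was -0.40 with a standard error of 0.11, or 75.7% of the SCC FAK-/- level, with an unadjusted limma p of 0.00924 and an adjusted limma p of 0.140. This p was at the edge of the threshold. Without SCC FAK-wt replicate 2 it was 0.00818, and without any other single array it was 0.0123 to 0.0344. The unadjusted p was likewise above 0.01 with each array centered on its median (0.0195), without moderated variances (0.0147) and with a replicate block (0.0238). Both receptors were thus lower in all 3 SCC FAK-wt samples, and neither passed the adjusted threshold.

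Both ligand genes had low values. Igf1 (ENSMUSG00000020053) lay between 2.63 and 2.69 in SCC FAK-/- samples and between 2.68 and 2.80 in SCC FAK-wt samples, and 7.71% of all genes had a lower mean. The difference was 0.073 (95% confidence interval -0.15 to 0.29; limma adjusted p = 0.792). Igf2 (ENSMUSG00000048583), an imprinted fetal growth factor gene that is reactivated in many tumors, lay between 3.13 and 3.47 in SCC FAK-/- samples. It lay between 3.02 and 3.33 in SCC FAK-wt samples, and the groups overlapped. Of all genes, 14.3% had a lower mean than Igf2. The difference was -0.20 (95% confidence interval -0.52 to 0.13; limma adjusted p = 0.582). The files hold no detection call, and near the background RMA values can compress a fold change, so these values do not show whether either ligand was expressed. Both lines were grown with fetal bovine serum, which itself contains IGFs.

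Of the other binding proteins, Igfbp4 varied least within each cell line. Igfbp4 (ENSMUSG00000017493), whose product mostly withholds IGF until the protease PAPP-A cleaves it, had values of 10.72, 10.65 and 10.68 in SCC FAK-/- samples. In SCC FAK-wt samples it had 10.41, 10.37 and 10.42. The SD was 0.031 in SCC FAK-/- and 0.025 in SCC FAK-wt cells, and the groups were separated by 0.23 log2 units. The difference was -0.28, or 82.2% of the SCC FAK-/- level (limma adjusted p = 0.183). When limma's variance prior was fitted robustly and as a trend over expression level, the limma adjusted p was 0.0485, and over the other alternatives it was 0.0609 to 0.377.

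Igfbp6 (ENSMUSG00000023046), which prefers IGF-II over IGF-I, lay between 10.98 and 11.14 in SCC FAK-/- samples and between 10.83 and 10.93 in SCC FAK-wt samples. The groups were separated by 0.048 log2 units. The difference of -0.16 (95% confidence interval -0.39 to 0.075) had a limma adjusted p of 0.525. Igfbp5 (ENSMUSG00000026185), which binds extracellular matrix, lay between 2.48 and 3.08 in SCC FAK-/- samples and between 2.54 and 2.65 in SCC FAK-wt samples. Its values were low in both lines, with 7.74% of all genes lower, and the difference of -0.16 had an interval of -0.53 to 0.22 (limma adjusted p = 0.725). With 1 array left out, the difference ranged from -0.30 to -0.0011, the latter without SCC FAK-/- replicate 3. As for the ligands, these values do not show whether Igfbp5 was expressed.

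Igfbp2 (ENSMUSG00000039323), which carries an integrin-binding RGD motif, lay between 5.97 and 6.37 in SCC FAK-/- samples and between 5.96 and 6.29 in SCC FAK-wt samples. The difference was -0.028 (95% confidence interval -0.38 to 0.32; limma adjusted p = 0.957), and its sign turned under other scalings, to 0.0040 with each array centered on its median and 0.012 with quantile normalization. Igfbp7 (ENSMUSG00000036256), which binds IGFs weakly, lay between 4.21 and 4.41 in SCC FAK-/- samples. It lay between 4.17 and 4.55 in SCC FAK-wt samples, a difference of 0.089 (95% confidence interval -0.22 to 0.39; limma adjusted p = 0.822). For Igfbp2 and Igfbp7 these intervals exclude differences of 1.5-fold in either direction in the array values, before any adjustment for the number of genes. For Igfbp7 only 29.3% of all genes had a lower mean. Compression of RMA values near the background could therefore hide a larger difference in its RNA.

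**Figure D3:**
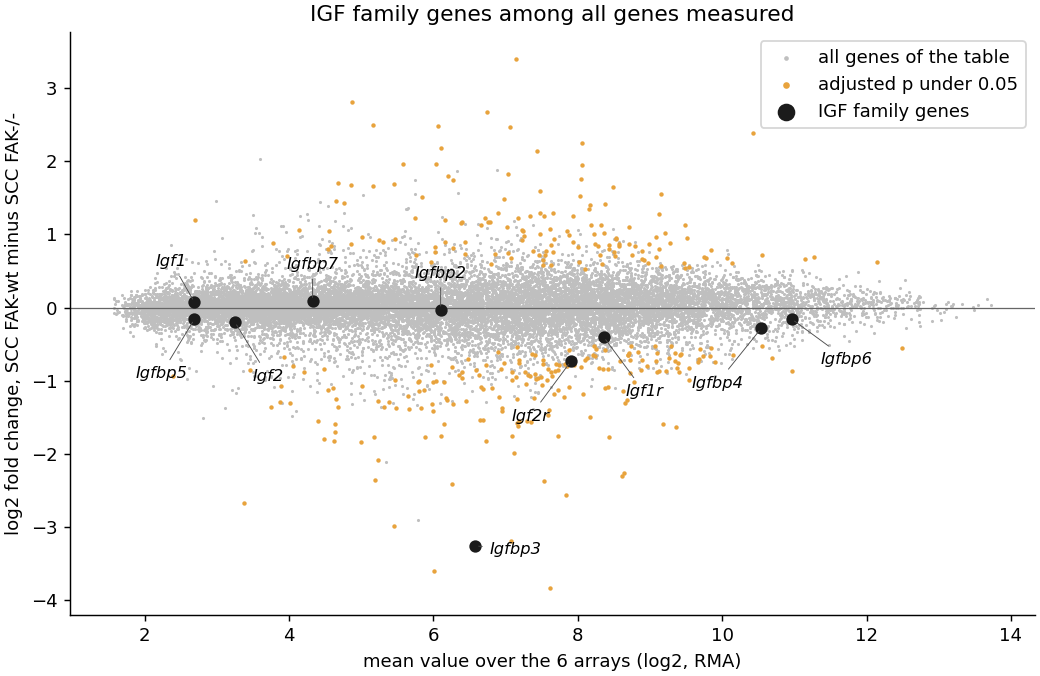
Log2 fold change, SCC FAK-wt minus SCC FAK-/- (y axis), against the mean log2 value over the 6 arrays (x axis) for all 17204 genes. Orange points had an adjusted p under 0.05 and black points are the 10 IGF family genes. Igfbp3, at -3.26, lies with the largest decreases of the table, while the other 9 lie between -0.74 and 0.089.

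In the RefSeq annotation, Igfbp2 and Igfbp5 are neighbouring protein-coding genes, and neither passed the test. Igfbp3 lies beside Igfbp1, the gene of another binding protein, which was not analysed here.

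Igfbp3 stayed past the adjusted threshold under every alternative tried. Over the 12 alternatives its log2 fold change was -3.35 to -3.11, and the limma adjusted p was 0.00102 to 0.00695 with 1 array left out. The highest adjusted p, 0.0464, came from an ordinary linear model without moderated variances. Igf2r, Igf1r and Igfbp4 kept their direction under the same 12 alternatives. Igf2r ranged from -0.87 to -0.57, Igf1r from -0.46 to -0.34 and Igfbp4 from -0.33 to -0.25.

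**Figure D4:**
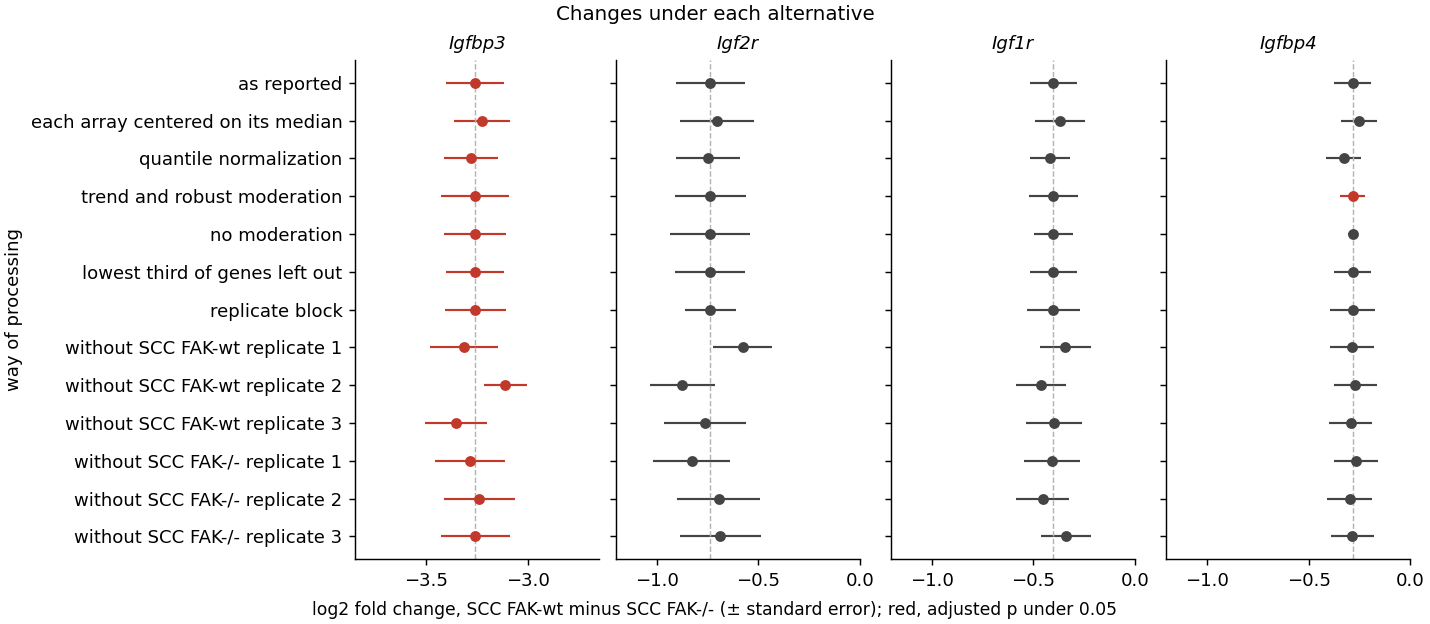
Log2 fold change with its standard error (x axis) of Igfbp3, Igf2r, Igf1r and Igfbp4 as reported and under 12 alternatives (y axis), with adjusted p under 0.05 in red. The horizontal axes have the same width but the one of Igfbp3 covers a different range. Igfbp3 is red in every line and lies between -3.35 and -3.11, and Igfbp4 is red only with a trended and robust variance prior.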

How the data were processed

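RNA of 3 SCC FAK-wt and 3 SCC FAK-/- samples was hybridized to Affymetrix GeneChip arrays of the mouse genome, 1 per sample. The authors obtained 1 value per Ensembl gene with RMA (affy package), and these deposited values were taken as log2 from their range. The probe mapping and the variant of background correction are not given in the sources used here and affect dim genes most. A model with cell line as its sole term was fitted to all 17204 genes (limma 3.58.1, R 4.3.3, eBayes with default settings), and two-sided p-values were adjusted by Benjamini-Hochberg. The fit was tested on simulated data. The precision is limited by 3 arrays per line. The labels number the replicates but do not say whether they were separate cultures. The p-values and intervals measure the spread between arrays of 1 clone and its transduced derivative. An exact permutation test was run for each member.

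The members and lists were chosen with earlier results of these data known. The symbols of the 10 members were supplied with their identifiers. None (0) of the 17204 identifiers was in the symbol table used, so the planned lists (other insulin and IGF genes, IGFBP proteases, IGFBP domain proteins, regulators of Igf2, adaptors, PI3K-AKT-mTOR and FOXO genes, and markers of squamous, fibroblast, immune and endothelial cells), the gene for FAK and the search for genes of like pattern were not analysed here. All members were named. Promoter windows and gene neighbours came from RefSeq (GRCm38.p6).

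The alternatives were median centering, quantile normalization, trended and robust moderation, no moderation, keeping the 11469 genes with the highest means, a replicate block, and leaving out each array.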

Additional observations from a re-analysis of the deposited data

How the results depend on the processing

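Of the 116 member values under alternatives, 110 kept their direction and their side of an adjusted p under 0.05. The exceptions were Igfbp4, which passed with trended and robust moderation (limma adjusted p = 0.0485), and 5 values of Igfbp2, which turned positive: 0.0040 with median centering, 0.012 with quantile normalization, 0.036 without SCC FAK-wt replicate 2, 0.0078 without SCC FAK-wt replicate 3 and 0.098 without SCC FAK-/- replicate 3. Over the fits with 1 array left out, Igfbp2 ranged from -0.13 to 0.098. The cause was not tested.

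At an adjusted p under 0.05, 0 members were higher under every alternative, and 1 was lower, except with trended and robust moderation, where 2 were (Igfbp3 and Igfbp4). At an unadjusted p under 0.01, 3 members were lower in the fit as reported. This count was 2 with median centering and with the replicate block, in both cases Igfbp3 and Igf2r. It was also 2 with no moderation, but these were Igfbp3 and Igfbp4 (unadjusted p of Igfbp4 in the ordinary linear model = 2.56e-04). The count was 3 with the 11469 genes of highest mean. It was 4 with quantile normalization and with trended and robust moderation (Igfbp3, Igf2r, Igf1r and Igfbp4). With an array left out it was 1 to 3. That count was 1, Igfbp3, without SCC FAK-/- replicate 2 and without SCC FAK-/- replicate 3. Igf1, Igf2, Igfbp5 and Igfbp7 were not among the 11469 genes with the highest means and had no value under that filter.

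When replicate number entered the model as a replicate block, 1 member was lower at an adjusted p under 0.05, again Igfbp3 (limma adjusted p = 0.00738). Deviations of same-numbered arrays from their line's mean correlated at -0.034 to 0.028 across genes. The labels do not say whether same-numbered samples share more than a number, and these correlations cannot settle it. The planned pathway counts were not run, for lack of symbols.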
